A study of Homo sapiens with 24 samples.

Results

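The endoplasmic reticulum chaperone genes described here are HSPA5, CALR, HYOU1, HSP90B1, PDIA4, DNAJB9, SDF2L1, HERPUD1, EDEM1 and XBP1. They were chosen by name, and all 10 were present among the 16591 gene symbols of the deposited expression table. The data are RNA sequencing values of 24 libraries from 4 human cancer cell lines. Of these, OVCAR8 and COV362 derive from ovarian cancer, and BT549 and MDAMB436 from breast cancer. Cells received 5 µM EPZ015666, a small-molecule inhibitor of the arginine methyltransferase PRMT5, or its vehicle DMSO. BT549 and OVCAR8 were sampled after 3 days and after 5 days, and COV362 and MDAMB436 after 5 days only, which gave 12 groups of 2 libraries named A and B. The comparison asks how PRMT5 inhibition changed gene expression in each line. No genotype or agent beyond line, drug, vehicle and time is labelled. Whether the pair of libraries in a group stems from independent cultures is not labelled, and the p-values therefore measure only the spread between libraries, which may be technical. Below, a vehicle library is one from DMSO and a drug library one from EPZ015666. Where groups are said to be separate or not to overlap, this describes 2 libraries against 2. The share of all genes separated in that way was not computed.

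Proteins that enter the secretory pathway fold in the lumen of the endoplasmic reticulum (ER) with the help of chaperones. HSPA5, also called BiP, binds exposed hydrophobic stretches, lectin chaperones such as calreticulin (CALR) hold glycoproteins, and disulfide isomerases such as PDIA4 form and rearrange disulfide bonds. When unfolded protein accumulates, the sensors ATF6, IRE1 and PERK start the unfolded protein response, in which ATF6 and the spliced form of XBP1 raise chaperone and degradation genes. Clients that do not fold are taken back to the cytosol and degraded by the proteasome, a route in which EDEM1 and HERPUD1 act.

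The promoters are shown first because the response is known to act through short elements in them. In the RefSeq promoter windows of build GRCh38.p14, which run from 250 bases before to 50 bases after a start, 10 of 10 members were matched by symbol, with 12 windows. The 3 motifs below were searched on both strands. The ER stress element, ERSE, was spelled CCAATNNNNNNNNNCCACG, the element ERSE-II was spelled ATTGGNCCACG, and the unfolded protein response element, UPRE, was spelled TGACGTGG. Of 27305 genes with a window, 0.0916% held an ERSE, 0.0696% an ERSE-II and 0.927% a UPRE. At least 1 of the 3 stood in 1.08% of all genes and in 7 of the 10 members. The response is known to raise chaperone and degradation genes, so these shares are a description and not an independent test. An ERSE was found in HSPA5, CALR, HSP90B1 and XBP1, and an ERSE-II in HYOU1, SDF2L1 and HERPUD1. The UPRE of HYOU1 overlapped the first of its 2 ERSE-II matches. The PDIA4, DNAJB9 and EDEM1 windows held none of these letters, which says nothing about the factors that act there. A match is a run of letters and not a tested binding site.

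The following stretches lie before the RefSeq start and before the GENCODE v29 gene start, 5′ to 3′ on the strand of the gene, with motif matches in capitals. They show examples of each motif, together with PDIA4 and EDEM1, which were called in every drug comparison and hold no match.
HSPA5, chr9:125241344-125241593, minus strand: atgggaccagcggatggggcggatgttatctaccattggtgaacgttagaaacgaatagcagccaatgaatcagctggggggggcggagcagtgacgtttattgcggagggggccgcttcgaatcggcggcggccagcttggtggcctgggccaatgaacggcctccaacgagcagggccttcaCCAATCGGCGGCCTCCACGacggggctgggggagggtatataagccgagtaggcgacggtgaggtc
CALR, chr19:12938359-12938577, plus strand: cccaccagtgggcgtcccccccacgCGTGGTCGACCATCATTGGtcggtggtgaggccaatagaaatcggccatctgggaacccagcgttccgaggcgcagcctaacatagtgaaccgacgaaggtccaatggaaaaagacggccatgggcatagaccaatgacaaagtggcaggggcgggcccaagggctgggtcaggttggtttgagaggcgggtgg
HYOU1, chr11:119057206-119057455, minus strand: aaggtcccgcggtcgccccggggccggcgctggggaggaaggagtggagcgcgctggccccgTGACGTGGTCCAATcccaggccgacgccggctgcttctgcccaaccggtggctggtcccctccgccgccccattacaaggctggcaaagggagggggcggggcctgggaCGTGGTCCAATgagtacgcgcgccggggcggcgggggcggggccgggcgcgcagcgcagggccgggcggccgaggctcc
HERPUD1, chr16:56931892-56932047, plus strand: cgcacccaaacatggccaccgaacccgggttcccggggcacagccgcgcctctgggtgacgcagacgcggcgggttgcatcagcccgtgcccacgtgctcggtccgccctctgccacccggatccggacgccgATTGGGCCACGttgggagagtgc
XBP1, chr22:28800598-28800819, minus strand: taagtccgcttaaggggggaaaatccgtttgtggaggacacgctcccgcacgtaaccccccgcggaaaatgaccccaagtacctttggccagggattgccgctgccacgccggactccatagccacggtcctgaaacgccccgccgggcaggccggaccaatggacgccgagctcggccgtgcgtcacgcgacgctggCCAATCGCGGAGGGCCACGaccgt
PDIA4, chr7:149028642-149028740, minus strand: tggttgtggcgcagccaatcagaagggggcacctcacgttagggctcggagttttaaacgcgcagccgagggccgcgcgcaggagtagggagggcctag
EDEM1, chr3:5187457-5187645, plus strand: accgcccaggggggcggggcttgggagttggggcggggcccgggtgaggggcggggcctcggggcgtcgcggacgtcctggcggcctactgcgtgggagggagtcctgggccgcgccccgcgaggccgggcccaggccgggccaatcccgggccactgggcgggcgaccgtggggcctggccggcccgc
In HSPA5 the ERSE ran from base -66 to base -48, counted from the RefSeq start, and in XBP1 from -52 to -34, both on the strand of the gene. The ERSE of CALR lay farther away, from -225 to -207, on the opposite strand. HERPUD1 held its ERSE-II from -117 to -107. In HYOU1 the ERSE-II matches ran from -185 to -175 and from -79 to -69. HSP90B1, whose stretch is not printed, held 2 ERSE matches, from -194 to -176 on the strand of the gene and from -89 to -71 on the opposite strand.

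**Figure D1:**
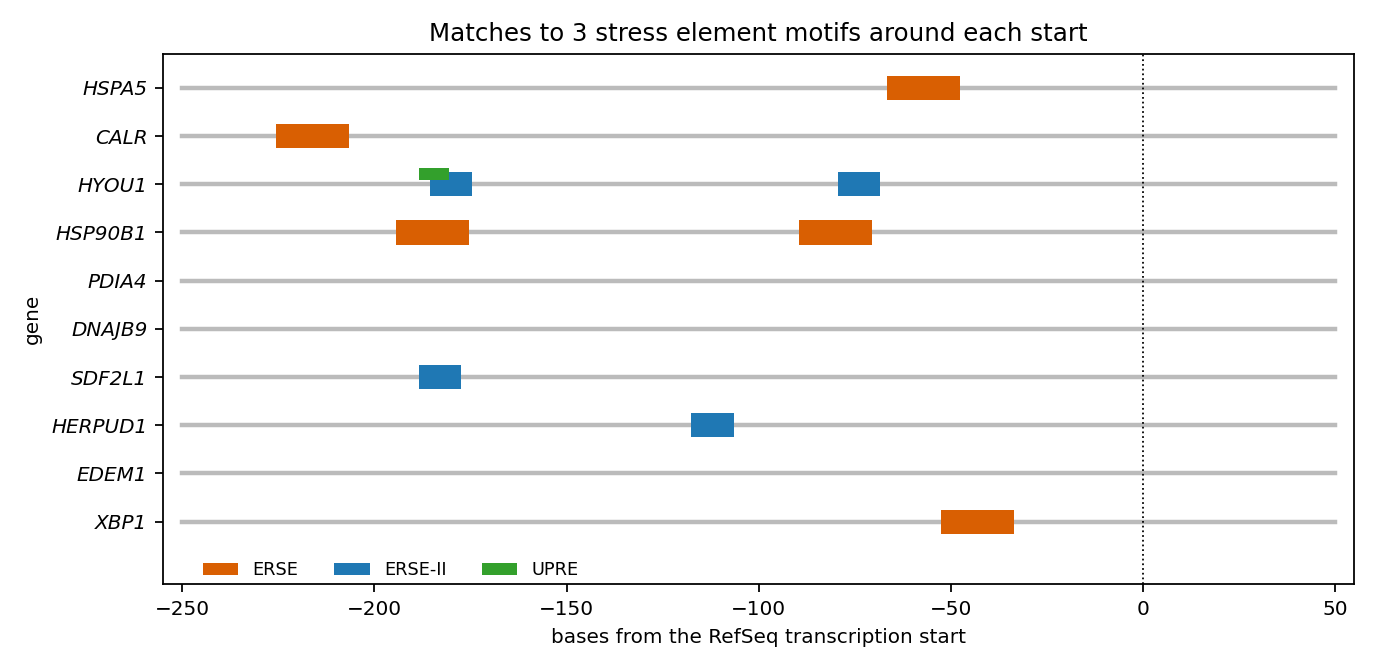
Matches to the ERSE, ERSE-II and UPRE motifs on either strand (coloured boxes) in the first RefSeq window of each of the 10 genes (grey lines), plotted by distance in bases from the RefSeq start (dotted line). Matches stand in 7 of the 10 genes, all of them upstream of the start, and PDIA4, DNAJB9 and EDEM1 have none.

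In GENCODE v29 on GRCh38, the annotation whose gene spans match the deposited values, each member is a protein-coding gene. HSPA5 (ENSG00000044574.7) lies at chr9:125234853-125241330, HYOU1 (ENSG00000149428.18) at chr11:119044189-119057202 and HSP90B1 (ENSG00000166598.14) at chr12:103930107-103953645. CALR (ENSG00000179218.13) lies at chr19:12938578-12944489 and PDIA4 (ENSG00000155660.10) at chr7:149003062-149028641. DNAJB9 (ENSG00000128590.4) lies at chr7:108569568-108574850 and SDF2L1 (ENSG00000128228.4) at chr22:21642261-21644298. HERPUD1 (ENSG00000051108.14) lies at chr16:56932048-56944863, EDEM1 (ENSG00000134109.10) at chr3:5187646-5219957 and XBP1 (ENSG00000100219.16) at chr22:28794555-28800597. Beside the overlaps named with the results below, the annotation places MIR6515 in CALR, TTC41P and MIR3652 in HSP90B1, THAP5 in DNAJB9, and the sense-intronic genes AC012181.1 and AC012181.2 in HERPUD1. Reads may be shared between overlapping genes.

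Values are RPKM, reads per kilobase of gene scaled to a total set for each library, and the length behind each value was the whole gene span with its introns. A gene with long introns therefore has a low RPKM for its exons. Recovered reads per library ran from 23753964 to 44937155, with a median of 27783418. The members were covered by between 149 reads (DNAJB9) and 110581 reads (CALR) in a library. PRMT5 lay between 2.07 and 6.22 RPKM in the 24 libraries, which is no check of an inhibitor of its protein. Reads in 4 genes at the ribosomal RNA locus of the short arm of chromosome 21 took 4.54% of reads in the OVCAR8 drug library B of day 5 and 1.39% in the BT549 drug library A of day 3, against 0.23% to 0.8% in the other 22 libraries. Of 5 breast lineage markers 3 were in the table, and their summed RPKM was 7.5 to 8.54 in BT549 and 1.33 to 1.83 in MDAMB436, where GATA3 was under 1. The same sum was 3.34 to 3.76 in OVCAR8 and 0.99 to 1.54 in COV362, so it did not separate breast from ovarian lines. The 5 ovarian serous markers summed to 5.67 to 48.06 in OVCAR8 and 12.82 to 41.89 in COV362, with PAX8 and WT1 under 1 in both. In BT549 they summed to 0.66 to 3.36 and in MDAMB436 to 2.98 to 3.32. Endothelial markers summed to at most 1.09 RPKM in any line, and the 1 leukocyte marker in the table, CD14, to at most 4.93.

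Without the drug, the lines differed widely in these genes. In DMSO at day 5, 10 of 10 members differed between the 4 lines by the moderated F test of limma at a Benjamini-Hochberg adjusted p of 0.05, against 98.4% of all genes tested. BT549 held the highest mean RPKM of 6 members, HSPA5, CALR, HYOU1, HSP90B1, PDIA4 and SDF2L1. COV362 held the lowest of 7. CALR, the calcium-binding lectin chaperone, had 748 and 739 RPKM in the BT549 libraries, 245 and 242 in MDAMB436, 161 and 164 in OVCAR8 and 109 and 109.6 in COV362. All neighbours in this order differed, with adjusted p of at most 7.49e-10, and the highest line stood 6.81-fold above the lowest. HYOU1, a large Hsp70-like chaperone that exchanges nucleotide on HSPA5, spanned 6.06-fold. Its values in OVCAR8 (13.1) and MDAMB436 (12.9) were not told apart, with an adjusted p of 0.582.

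EDEM1, a mannosidase-like protein that marks glycoproteins for degradation, had another order. It was highest in MDAMB436, with 4.67 and 4.99 RPKM, then BT549 with 3.45 in both libraries, OVCAR8 with 1.39 and 1.57, and COV362 with 0.853 and 0.869. These groups did not overlap, and each neighbour in the order differed (adjusted p of at most 5.39e-08). HERPUD1, a membrane protein of the degradation complex, was highest in OVCAR8 (6.51) and lowest in COV362 (2.83), and MDAMB436 (3.01) and COV362 were not told apart (adjusted p = 0.212). XBP1 spanned 1.45-fold, the narrowest range of the 10, from 18.1 in OVCAR8 to 12.4 in COV362. OVCAR8 and MDAMB436 (17.5) were not told apart for XBP1 (adjusted p = 0.286).

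Other neighbours that did not pass were OVCAR8 and MDAMB436 for HSPA5 (156 and 154, adjusted p = 0.658) and for SDF2L1 (11.7 and 10.5, adjusted p = 0.062). COV362 and MDAMB436 were not told apart for HSP90B1 (31.2 and 30.1, adjusted p = 0.491) or DNAJB9 (3.02 and 3.41, adjusted p = 0.17). The share of all genes called between a pair of lines was 85.6% for BT549 against MDAMB436, 83.3% for BT549 against OVCAR8, 83.4% for BT549 against COV362, 87.2% for MDAMB436 against OVCAR8, 83.8% for MDAMB436 against COV362 and 83.1% for OVCAR8 against COV362. A difference between lines was thus usual for a gene in these data.

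Levels of different genes were compared only as reads per kilobase of merged exons. They were scaled to recovered reads and not to the totals behind the RPKM. This takes intron length out of the divisor. Whether intronic reads were counted cannot be told, and if they were, genes with long introns such as PDIA4 and HSP90B1 stand too high. On that scale CALR ranked first of the members in all 4 lines, with 1518.4 ± 12.4 (SD, n = 2) in BT549 and 241.5 ± 0.6 in COV362. HSPA5 and HSP90B1, the ER member of the Hsp90 family, took ranks 2 and 3 in every line, and PDIA4 rank 4. In BT549 they stood at 516 ± 21.5, 513.5 ± 36.8 and 299.5 ± 9.7, and the first pair differed by less than the SD. DNAJB9 was the lowest member in BT549, OVCAR8 and MDAMB436, at 3.5 ± 0.2 in OVCAR8, while EDEM1 was the lowest in COV362 at 4.2. CALR, HSPA5, HSP90B1 and PDIA4 thus formed the upper end in each line, above the co-chaperones, the degradation genes and XBP1.

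**Figure D2:**
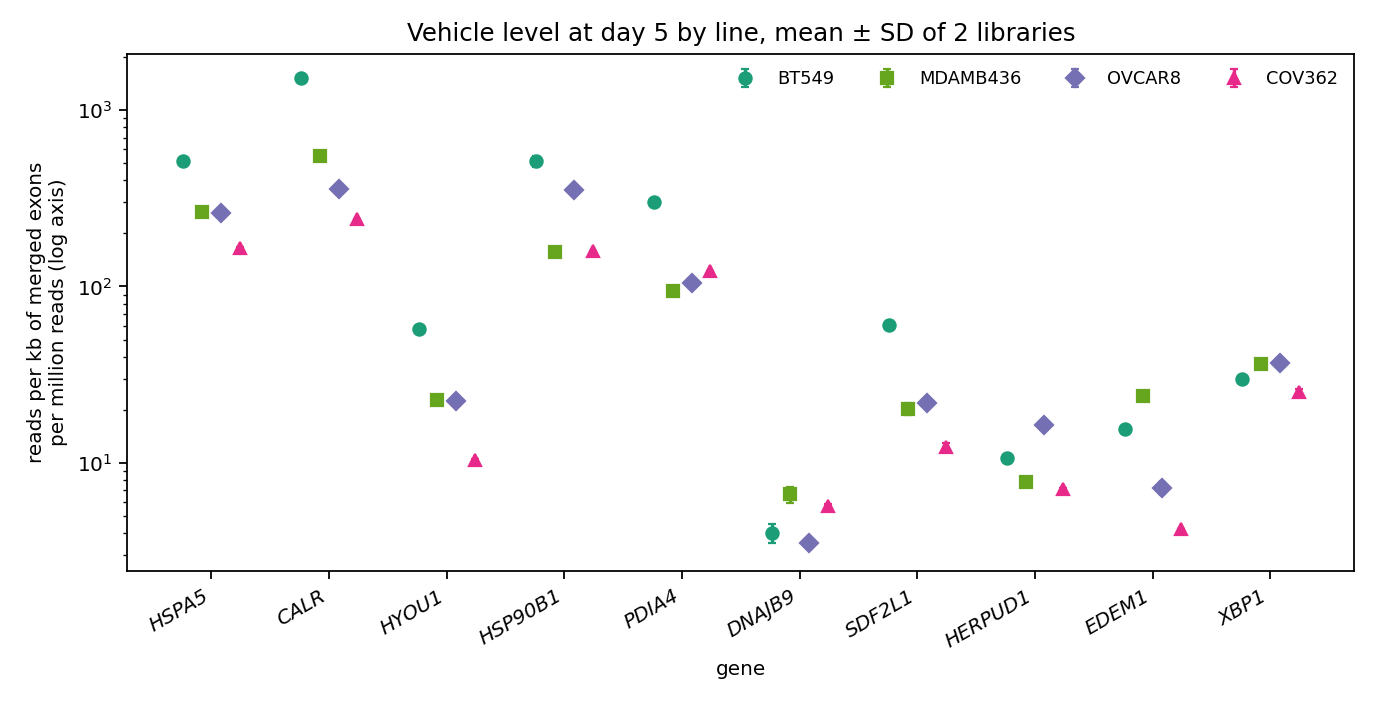
Level of each of the 10 genes in DMSO at day 5, as reads per kilobase of merged exons, scaled to recovered reads. The axis is logarithmic, and points give the mean and SD of the 2 libraries of each line. CALR is the highest gene in all 4 lines (1518.4 in BT549), and BT549 lies highest for HSPA5, CALR, HYOU1, HSP90B1, PDIA4 and SDF2L1.

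Under EPZ015666, PDIA4 was lower and EDEM1 higher in all 6 drug comparisons (4 lines at day 5, 2 lines at day 3). HYOU1 was lower in 5 and higher in 1, and HERPUD1 was higher in 5 and lower in none. The share of all genes called alike in 5 or 6 comparisons was not computed. FKBP10, an ER folding gene outside the members, was also lower in all 6. In COV362, 8 members were higher. A gene was called at a Benjamini-Hochberg adjusted p under 0.05 from limma, fitted per line to log2(RPKM + 1), over genes whose mean RPKM in that line reached 1. All 10 members passed that filter in each line, but EDEM1 passed in COV362 only through its drug libraries (mean 0.861 in DMSO and 1.25 with EPZ015666). Log2 changes below are on this scale, which understates the change of low genes such as EDEM1 and DNAJB9, and folds are ratios of mean RPKM. In bulk RNA, fewer cells of a kind and less RNA per cell cannot be told apart.

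In BT549 at day 5, 7 members were lower and 1 was higher, where 22.7% of all genes tested were lower and 17.7% higher. The members' median log2 change was -0.303, against -0.007 over all genes. With a minimum mean RPKM of 5, which 7 members passed, these medians were -0.595 and -0.039. Limma-voom on recovered reads tested 11704 genes. It scaled libraries to their recovered reads and not to the totals behind the RPKM, and its median over all genes was 0.073. With it the split of all genes called went from 1108 higher and 1419 lower to 3400 higher and 2034 lower. At day 3 in this line 3 members were lower and 2 higher, with 10.8% of genes lower and 9.22% higher. Without the BT549 drug library A of day 5 the day 5 count was 5 in place of 8, and all genes called fell from 2527 to 1387. Without the BT549 drug library A of day 3, the library with 1.39% of reads at the ribosomal RNA locus, the day 3 count was 3 in place of 5, with 1073 genes called in place of 1250.

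In OVCAR8 at day 5, 5 members were lower and 2 higher, with 35.1% of all genes lower and 21.1% higher. At day 3, 6 were lower and 2 higher, with 21.4% lower and 15.6% higher overall. The median log2 change was -0.345 at day 3 and -0.153 at day 5, against -0.009 and -0.043 over all genes. With values scaled by median-of-ratios factors, the 3558 genes called at day 5 (1338 higher, 2220 lower) became 3564, with 1780 higher and 1784 lower. The GC and span correction gave 1698 higher and 1762 lower, and limma-voom 3703 higher and 3168 lower. At day 3 limma-voom gave 2782 higher and 1996 lower, in place of 985 and 1356. After correcting for GC content and gene span, the median of the members at day 5 was -0.034.

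In COV362 at day 5, 8 members were higher and 1 was lower, with 39.3% of genes higher and 31.5% lower. The median log2 change was 0.331, against 0.032 over all genes. In MDAMB436 at day 5, 3 were higher and 3 lower, with 19.0% of genes higher and 23.2% lower, and the median was 0.032 against -0.009. The MDAMB436 count was between 3 and 4 with any 1 of its 4 libraries left out, and was 3 without the MDAMB436 drug library B of day 5, where all genes called fell from 2640 to 1353.

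**Figure D3:**
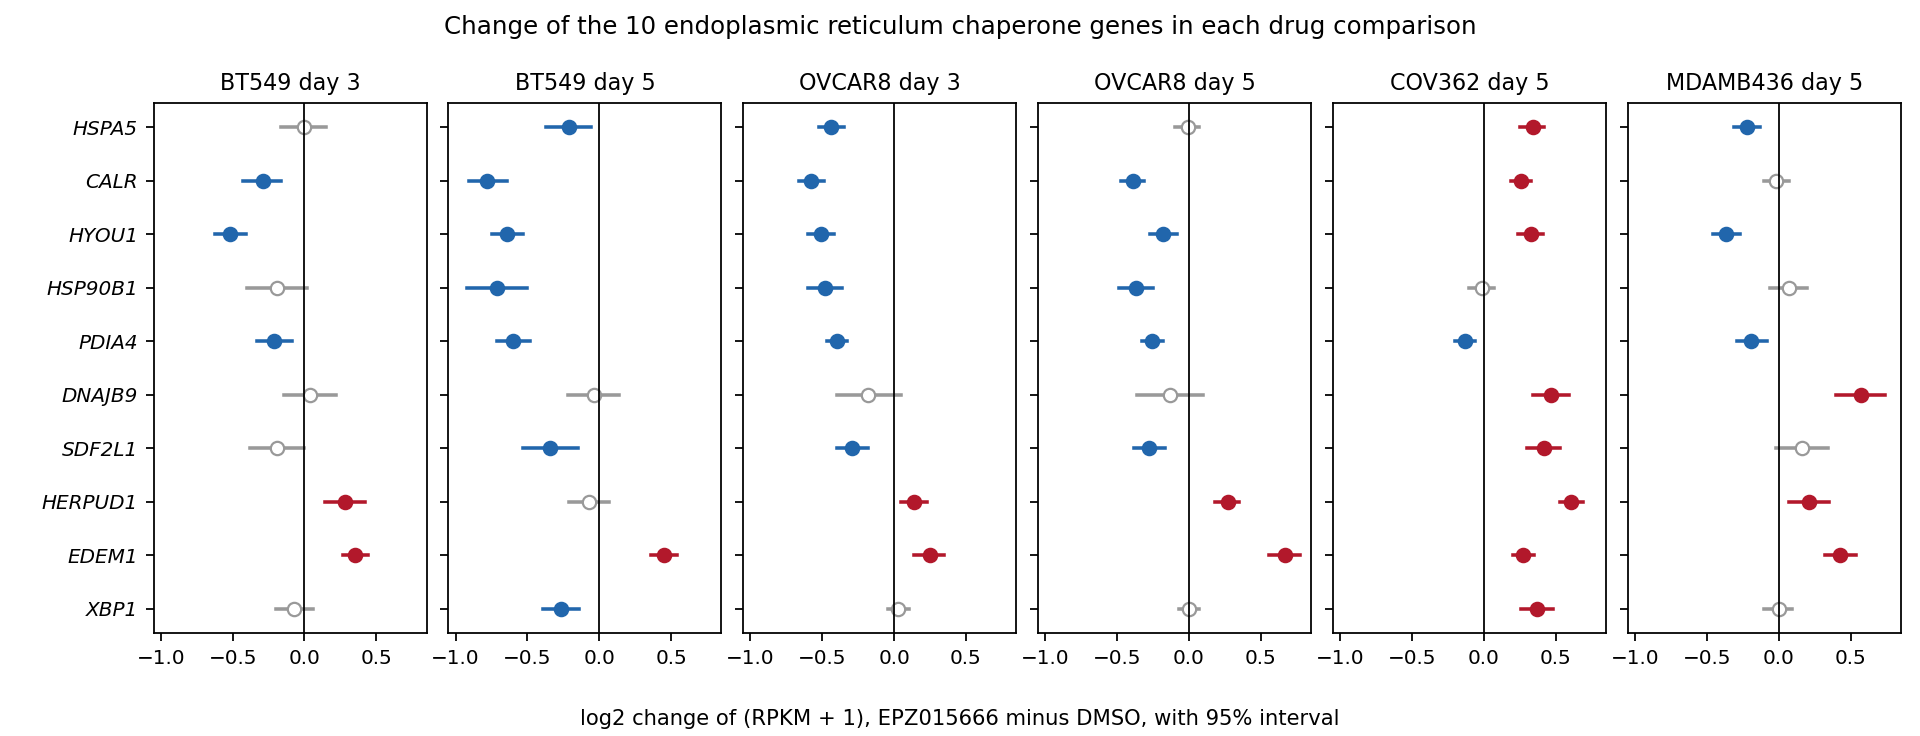
Log2 change of (RPKM + 1), EPZ015666 minus DMSO, of each gene in the 6 drug comparisons, with its 95% interval. Filled points passed the adjusted p of 0.05 (blue lower, red higher) and open grey points did not. EDEM1 lies to the right of 0 in all 6 panels, PDIA4 to the left in all 6, and 8 genes lie to the right in COV362.

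The first group is the Hsp70 and Hsp90 chaperones of the ER lumen, HSPA5, HYOU1 and HSP90B1. HSPA5 fell in OVCAR8 at day 3, in BT549 at day 5 and in MDAMB436, and rose in COV362. In OVCAR8 at day 3 its libraries read 171 and 169.9 RPKM in DMSO and 122 and 129 with EPZ015666 (0.736-fold, log2 change -0.44 ± 0.035 SE, adjusted p = 0.000395). In COV362 at day 5 they read 96.7 and 99.6 in DMSO and 122 and 126 with the drug (1.26-fold, log2 change 0.34 ± 0.031, adjusted p = 0.00106). Neither pair of groups overlapped. The fall in OVCAR8 was at day 3 only, and at day 5, the day shared with COV362, HSPA5 did not pass in OVCAR8. In BT549 at day 5 it went from 342 and 322 to 279.7 and 292 (0.862-fold, adjusted p = 0.0358). In MDAMB436 it went from 152 and 156 to 132 and 132 (0.858-fold, adjusted p = 0.00951).

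Both of those smaller HSPA5 calls were sensitive to single libraries. The BT549 call ended when any of the 4 libraries compared was left out, with an adjusted p of 0.188 without vehicle library A of day 5, 0.077 without vehicle library B of day 5, 0.197 without drug library A of day 5 and 0.095 without drug library B of day 5. With no filter on low values the BT549 adjusted p was 0.0684. The MDAMB436 call ended without drug library A (0.0654) or B (0.0712). In BT549 at day 3 HSPA5 read 308 and 288 in DMSO and 286 and 308 with the drug, ranges that overlapped (adjusted p = 0.968). In OVCAR8 at day 5 it read 156 and 156 in DMSO and 156 and 153 with the drug (log2 change -0.01, 95% interval -0.10 to 0.07, adjusted p = 0.743).

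HYOU1 was called in every drug comparison. The largest fall was in BT549 at day 5, from 35.5 and 37.3 RPKM to 23.0 and 23.0 (0.632-fold, log2 change -0.64 ± 0.045, adjusted p = 0.000112). The values at day 3 were 35.1 and 35.0 in DMSO and 24.1 and 24.2 with EPZ015666 (0.69-fold, adjusted p = 0.00104). Both days thus gave separate groups. The log2 change at day 5 minus that at day 3 was -0.12 (95% interval -0.27 to 0.03) and did not pass (adjusted p = 0.277). It fell to 0.682-fold in OVCAR8 at day 3, to 0.876-fold there at day 5 and to 0.757-fold in MDAMB436, and rose 1.3-fold in COV362, from 5.9 and 6.12 to 7.68 and 7.9. The OVCAR8 day 5 call had an adjusted p of 0.00985, which was 0.0508 without the OVCAR8 vehicle library B of day 5 or drug library B of day 5, and 0.146 after the GC and span correction. An antisense gene, AP003392.3, overlaps HYOU1.

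HSP90B1 fell in BT549 at day 5, from 115 and 104 RPKM to 65.5 and 67.3 (0.608-fold, log2 change -0.71 ± 0.089, adjusted p = 0.00110), and in OVCAR8 on both days. The OVCAR8 libraries at day 3 read 64.2 and 64.1 in DMSO and 43.7 and 47.8 with the drug (0.714-fold, adjusted p = 0.000977), and at day 5 they read 71.0 and 67.4 against 54.0 and 52.9 (0.772-fold, adjusted p = 0.00135). None of these groups overlapped. It did not pass in BT549 at day 3 (0.876-fold, adjusted p = 0.166), in COV362 (0.99-fold, adjusted p = 0.712) or in MDAMB436 (1.05-fold, adjusted p = 0.330). The BT549 day 3 value passed in the joint fit of 24 libraries (adjusted p = 0.0377), and the MDAMB436 value passed as higher with limma-voom on recovered reads (log2 change 0.093, adjusted p = 0.0372). C12orf73, a gene in the table on the opposite strand, overlaps HSP90B1.

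The second group is the lectin CALR and the disulfide isomerase PDIA4. CALR fell in BT549 and OVCAR8 on both days. In BT549 at day 5 its 2 DMSO libraries read 748 and 739 RPKM and its 2 EPZ015666 libraries 427 and 439.8 (0.583-fold, log2 change -0.78 ± 0.057, adjusted p = 0.000119), the largest fall of a member in fold. At day 3 they read 596 and 611 against 472 and 513 (0.816-fold, adjusted p = 0.0135). The day 3 groups were separate but closer, and the call did not hold when those 4 libraries were fitted alone (adjusted p = 0.094). In OVCAR8 the values were 150.0 and 147 against 101 and 97.6 at day 3 (0.668-fold, adjusted p = 0.000188) and 161 and 164 against 125 and 122 at day 5 (0.762-fold, adjusted p = 0.000256). COV362 went the other way, from 109 and 109.6 to 131 and 130.5 (1.2-fold, adjusted p = 0.00121). MDAMB436 libraries overlapped, with 245 and 242 in DMSO and 239 and 242 with the drug (log2 change -0.02, 95% interval -0.10 to 0.07, adjusted p = 0.704). An antisense gene, AC092069.1, overlaps CALR.

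PDIA4 was the only member lower in all 6 drug comparisons. In BT549 its libraries read 33.5 and 33.3 RPKM in DMSO and 27.9 and 29.6 with EPZ015666 at day 3 (0.86-fold, adjusted p = 0.0275), and 41.9 and 40.0 against 26.5 and 27.0 at day 5 (0.654-fold, log2 change -0.60 ± 0.05, adjusted p = 0.000218). OVCAR8 read 14.2 and 14 against 10.4 and 10.5 at day 3 (0.741-fold, adjusted p = 0.000335), and 13 and 13.6 against 11.1 and 10.8 at day 5 (0.825-fold, adjusted p = 0.000753). Each of these 4 pairs of groups was separate. COV362, where most members were higher, had 15.5 and 15.5 in DMSO and 13.9 and 14.2 with the drug (0.909-fold, adjusted p = 0.00960). MDAMB436 had 11.7 and 11.6 against 9.88 and 10.4 (0.867-fold, adjusted p = 0.0213).

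The small PDIA4 changes rested on both libraries of a group. The BT549 day 3 call ended with any of 7 of the line's 8 libraries left out, all but drug library B of day 3 (adjusted p of 0.0552 to 0.0823). The COV362 call ended without vehicle library A (0.0531) or B (0.0571), and the MDAMB436 call with any of its 4 libraries left out (0.0548 to 0.144). The direction was lower in each of these cases. The BT549 day 3 adjusted p was 0.158 when the 4 libraries compared were fitted alone, and the MDAMB436 one was 0.0559 with no filter on low values.

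DNAJB9 and SDF2L1 are co-chaperones that work with HSPA5. DNAJB9, an ER J protein, rose in 2 lines and passed in no comparison of the other lines. In MDAMB436 its libraries went from 3.14 and 3.68 RPKM to 5.57 and 5.52 (1.63-fold, log2 change 0.57 ± 0.066, adjusted p = 0.00484), and in COV362 from 3.07 and 2.97 to 4.34 and 4.77 (1.51-fold, log2 change 0.47 ± 0.046, adjusted p = 0.00125). These groups were well apart. In BT549 the libraries read 2.08 and 2.45 in DMSO and 2.03 and 2.32 with the drug at day 5, and in OVCAR8 1.92 and 1.77 against 1.44 and 1.77. Both overlapped, with adjusted p of 0.717 and 0.278, and day 3 gave adjusted p of 0.734 in BT549 and 0.185 in OVCAR8. PNPLA8, on the opposite strand and in the table, overlaps DNAJB9.

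SDF2L1, a partner of ER J proteins, fell in BT549 at day 5 (34.8 to 27.3 RPKM, 0.784-fold, adjusted p = 0.0141) and in OVCAR8 at day 3 (12.2 to 9.77, 0.803-fold, adjusted p = 0.00392) and day 5 (11.7 to 9.45, 0.81-fold, adjusted p = 0.00268). It rose in COV362, from 6.7 and 6.23 to 9.16 and 8.77 (1.39-fold, adjusted p = 0.00140). It did not pass in BT549 at day 3 (0.873-fold, adjusted p = 0.134) or in MDAMB436 (1.13-fold, adjusted p = 0.127). At 65.5% GC in its longest transcript it is the most GC-rich member, and correcting for GC content and span moved it most. After it, the OVCAR8 log2 change was 0.003 at day 5 (adjusted p = 0.973) and -0.154 at day 3 (adjusted p = 0.0818), and the MDAMB436 change was 0.319 (adjusted p = 0.0109). The BT549 call ended without vehicle library B of day 5 (0.0886), drug library A of day 5 (0.0825) or drug library B of day 5 (0.0592).

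The third group serves the removal of misfolded protein. EDEM1 rose in all 6 drug comparisons, and no left-out library ended a call. In BT549 it went from 3.57 and 3.52 RPKM to 4.82 and 4.8 at day 3 (1.36-fold, log2 change 0.35 ± 0.038, adjusted p = 0.00185), and from 3.45 and 3.45 to 5.17 and 5.0 at day 5 (1.47-fold, log2 change 0.45 ± 0.038, adjusted p = 0.000212). In OVCAR8 it went from 2.15 and 2.14 to 2.81 and 2.66 at day 3 (1.27-fold, adjusted p = 0.00681), and from 1.39 and 1.57 to 3.0 and 2.87 at day 5 (1.98-fold, log2 change 0.67 ± 0.044, adjusted p = 9.21e-05). The day 5 change in OVCAR8 was the largest rise of a member in fold. COV362 went from 0.853 and 0.869 to 1.29 and 1.21 (1.45-fold, adjusted p = 0.00148), and MDAMB436 from 4.67 and 4.99 to 6.76 and 6.96 (1.42-fold, adjusted p = 0.00386). In COV362 the gene met the minimum mean RPKM of 1 only through the drug libraries. In each comparison both drug libraries lay above both vehicle libraries, a separation whose share over all genes was not computed. An antisense gene, AC026202.3, overlaps EDEM1, and the strand setting of the counting is not given in the sources used here.

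HERPUD1 rose in 5 of 6 drug comparisons. In COV362 its libraries went from 2.84 and 2.81 RPKM to 4.93 and 4.73 (1.71-fold, log2 change 0.61 ± 0.03, adjusted p = 0.000264), and in OVCAR8 at day 5 from 6.51 and 6.5 to 8.05 and 8.04 (1.24-fold, log2 change 0.27 ± 0.036, adjusted p = 0.00126). These 2 groups were separate by many times the distance between libraries. The other rises were smaller. BT549 at day 3 went from 3.85 and 4.38 to 5.39 and 5.02 (1.26-fold, adjusted p = 0.0183), OVCAR8 at day 3 from 6.35 and 5.88 to 6.81 and 6.86 (1.12-fold, adjusted p = 0.0255) and MDAMB436 from 2.9 and 3.12 to 3.46 and 3.83 (1.21-fold, adjusted p = 0.0353). In BT549 at day 5 the order turned, with 4.55 and 4.55 in DMSO and 4.34 and 4.21 with the drug, and the difference did not pass (adjusted p = 0.360).

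Each smaller HERPUD1 call ended without some library. For BT549 at day 3 this was drug library A of day 3 (adjusted p = 0.0653). For OVCAR8 at day 3 these were vehicle library B of day 3 (0.107), drug library A of day 3 (0.0761) and drug library B of day 3 (0.0936). For MDAMB436 these were vehicle library A of day 5 (0.121), vehicle library B of day 5 (0.0543) and drug library B of day 5 (0.149). With no filter on low values the MDAMB436 adjusted p was 0.122 and that of BT549 at day 3 was 0.0541. Fitting the 4 libraries compared alone gave 0.0758 in BT549 at day 3 and 0.0775 in OVCAR8 at day 3.

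XBP1 encodes the transcription factor of the response, and gene-level RPKM do not separate its spliced form from the unspliced one. It rose in COV362, from 12.8 and 12.1 RPKM to 16.7 and 16 (1.31-fold, log2 change 0.37 ± 0.04, adjusted p = 0.00166), and fell in BT549 at day 5, from 16.5 and 15.6 to 13 and 13.3 (0.82-fold, adjusted p = 0.00729). Neither pair of groups overlapped. The BT549 call ended without vehicle library A of day 5 (0.057) or drug library A of day 5 (0.0586). In MDAMB436 (0.998-fold, adjusted p = 0.959) and in OVCAR8 at day 5 (0.999-fold, adjusted p = 0.980) the means were nearly equal, with 95% intervals of the log2 change of -0.10 to 0.09 and -0.07 to 0.07. Day 3 gave adjusted p of 0.382 in BT549 and 0.400 in OVCAR8.

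**Figure D4:**
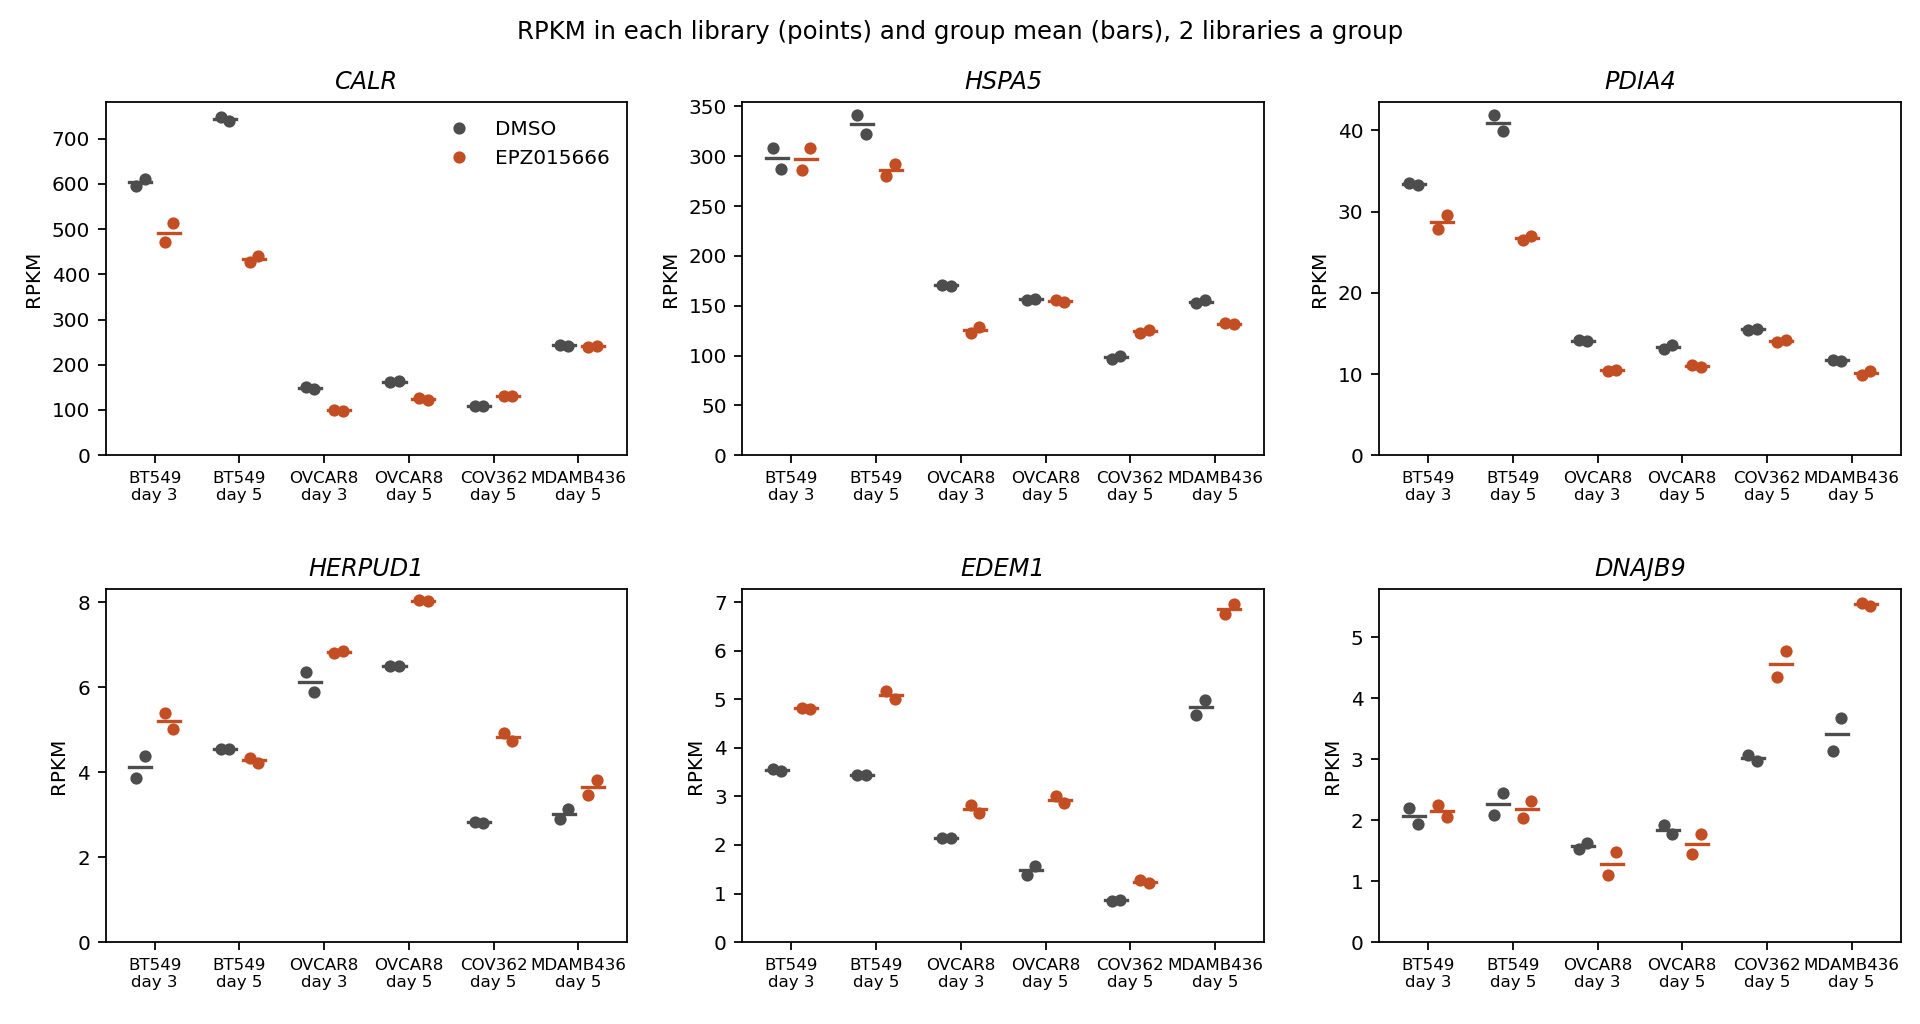
RPKM of CALR, HSPA5, PDIA4, HERPUD1, EDEM1 and DNAJB9 in each library (points) with the group mean (bars), for DMSO (grey) and EPZ015666 (orange), on linear axes from 0. EDEM1 lies higher with the drug in all 6 comparisons, PDIA4 lower in all 6, and DNAJB9 is higher in COV362 and MDAMB436.

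BT549 and OVCAR8 allow the effect at day 5 to be set against that at day 3. The difference of the effects passed for 2 members in BT549, where 5.97% of all genes passed, and for 3 in OVCAR8, where 7.46% passed. In BT549 the fall was deeper at day 5 for CALR (log2 difference -0.48 ± 0.08, adjusted p = 0.0278) and PDIA4 (-0.38 ± 0.071, adjusted p = 0.0342). In OVCAR8 the effect moved upward between the days for HSPA5 (0.42 ± 0.049, adjusted p = 0.0257), HYOU1 (0.33 ± 0.055, adjusted p = 0.0318) and EDEM1 (0.42 ± 0.062, adjusted p = 0.0278). HSPA5 had fallen at day 3 and did not pass at day 5 (log2 change -0.01), HYOU1 fell less at day 5, and EDEM1 rose more. Over all genes called, the difference was higher in 146 and lower in 326 in OVCAR8, and 248 and 184 with median-of-ratios scaling. In BT549 it was 95 and 278, and 960 and 514 with limma-voom.

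These differences had little margin. With any 1 of the 8 OVCAR8 libraries left out, 0 of the 3 OVCAR8 calls held, and the adjusted p lay between 0.0535 and 0.102. The calls over all genes fell with them, from 472 to between 0 and 6. In BT549, where all-gene calls ran from 0 to 608 with 1 library left out against 373 with all, the CALR call ended with any of 5 libraries left out (adjusted p of 0.0612 to 0.155) and the PDIA4 call with any of 6 (0.0612 to 0.162). These included both DMSO and both EPZ015666 libraries of day 5 and vehicle library A of day 3 for each gene, and drug library B of day 3 for PDIA4. With no filter on low values the count was 0 members in BT549 (140 of 16591 genes) and 1 in OVCAR8 (249 of 16591 genes). The joint fit of 24 libraries gave 6 members in BT549, and 1591 of 6249 genes.

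The vehicle cultures also moved between the days. In BT549, 3 members were higher in DMSO at day 5 than at day 3, where 10.7% of genes were higher and 6.02% lower, and no member was lower. They were CALR (604 to 743 RPKM, 1.23-fold, adjusted p = 0.0160), HSP90B1 (82.9 to 109, 1.32-fold, adjusted p = 0.0275) and PDIA4 (33.4 to 40.9, 1.23-fold, adjusted p = 0.0132). The HSP90B1 adjusted p was 0.0848 with no filter on low values and 0.0518 with the replicate block. The count was 0 without either DMSO day 5 library (156 to 163 genes called in place of 1044) and 1 without vehicle library A of day 3. In OVCAR8, 2 members were higher and 3 lower, with 20.7% of genes higher and 15.9% lower. XBP1 (14.8 to 18.1, 1.22-fold, adjusted p = 0.00210) and CALR (149 to 163, 1.09-fold, adjusted p = 0.0291) were higher. EDEM1 (2.15 to 1.48, 0.689-fold, adjusted p = 0.00306), HYOU1 (14.7 to 13.1, 0.89-fold, adjusted p = 0.0233) and HSPA5 (171 to 156, 0.916-fold, adjusted p = 0.0338) were lower. This count was 2 without vehicle library A of day 5 or vehicle library A of day 3, and 3 without library B of either day. The CALR value had an adjusted p of 0.0504 with median-of-ratios scaling and 0.218 after the GC and span correction. All genes called split into 934 higher and 856 lower in BT549 after that correction, in place of 668 and 376. With limma-voom they split into 1073 and 1552 in BT549 and into 1982 and 2453 in OVCAR8, in place of 1313 and 1009.

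The vehicle of a day is shared by that day's drug effect, the difference of effects and the vehicle comparison, so the day 5 drug libraries were also set against DMSO of day 3, a choice made after the data were seen. Against that vehicle the EDEM1 log2 change in OVCAR8 was 0.322 (adjusted p = 0.00231) in place of 0.667, and in BT549 it was 0.421 (adjusted p = 0.000534) in place of 0.451. CALR in BT549 was -0.477 (adjusted p = 0.00146) in place of -0.777, and HSP90B1 was -0.314 (adjusted p = 0.0362) in place of -0.708. HSPA5 in BT549 did not pass (-0.058, adjusted p = 0.533), while in OVCAR8 it did (-0.141, adjusted p = 0.0206), and XBP1 in OVCAR8 was higher (0.269, adjusted p = 0.000995). This setting mixes drug with time, and the part of time in these values was not tested.

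Across the 4 lines, the mean effect at day 5 passed for 7 members, 3 higher and 4 lower, where 34.8% of all genes were higher and 36.9% lower. The higher members were EDEM1 (log2 change 0.46 ± 0.018, adjusted p = 7.60e-12), HERPUD1 (0.25 ± 0.025, adjusted p = 2.09e-07) and DNAJB9 (0.22 ± 0.043, adjusted p = 0.000339). EDEM1 entered this fit with a vehicle mean of 0.861 RPKM in COV362, under the minimum of 1 that its drug libraries met. The lower ones were PDIA4 (-0.29 ± 0.017, adjusted p = 5.30e-10), HSP90B1 (-0.26 ± 0.034, adjusted p = 6.42e-06), CALR (-0.23 ± 0.019, adjusted p = 2.57e-08) and HYOU1 (-0.21 ± 0.017, adjusted p = 1.96e-08). HSPA5 (-0.03), SDF2L1 (-0.01) and XBP1 (0.02) did not pass, with adjusted p of 0.276, 0.802 and 0.274, and for each of them lines with a fall stood beside lines with a rise. After the GC and span correction SDF2L1 was higher (0.155, adjusted p = 7.01e-05), and with limma-voom XBP1 was higher (0.057, adjusted p = 0.0353).

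The size or direction of the day 5 effect differed between the lines for 10 of 10 members, against 74.7% of all genes. The adjusted p of this F test ran from 4.94e-09 for CALR and HYOU1 to 0.000173 for DNAJB9. A mean over lines is therefore a mean over unequal effects. In COV362 the members that rose included CALR, HSPA5, HYOU1 and SDF2L1, each of which fell in BT549. EDEM1 rose in all 4 lines but by unequal amounts (adjusted p = 8.15e-05).

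The neighbouring ER and chaperone genes are given from 6 further lists. Their counts at day 5 stand against 17.7% of all genes higher and 22.7% lower in BT549, 21.1% and 35.1% in OVCAR8, 39.3% and 31.5% in COV362, and 19.0% and 23.2% in MDAMB436. At day 3 the shares were 9.22% and 10.8% in BT549 and 15.6% and 21.4% in OVCAR8. Of the other ER folding factors, 23 were tested in BT549, of which 15 fell and 1 rose at day 5, with a list median of -0.371. FKBP10, a prolyl isomerase of collagen folding, stood at 0.531-fold (adjusted p = 6.01e-05), and CRELD2, a stress-induced ER protein, at 0.6-fold (adjusted p = 0.000111). At day 3, 3 of the 23 fell and 1 rose, with FKBP10 at 0.764-fold and GANAB, the catalytic subunit of glucosidase II, at 0.812-fold. In OVCAR8, 12 of 22 fell and 1 rose at day 3 and 14 fell and 3 rose at day 5, with FKBP10 at 0.489-fold and 0.509-fold and MANF, a secreted stress-induced factor, at 0.646-fold and 0.632-fold. In COV362, 13 of 22 rose and 5 fell, with CALU, a calcium-binding protein, at 1.63-fold and FKBP10 at 0.511-fold. In MDAMB436, 6 of 23 rose and 6 fell, with CALU at 1.32-fold and FKBP10 at 0.597-fold. FKBP10 was thus lower in all 6 drug comparisons.

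Among the other ER degradation genes at day 5, 4 of 20 rose and 7 fell in BT549, and 6 of 18 rose and 3 fell in OVCAR8. MAN1B1, an ER mannosidase, stood at 0.413-fold in BT549 and 0.714-fold in OVCAR8, and UBE2G2, a ubiquitin-conjugating enzyme, at 0.7-fold and 0.55-fold. In COV362, 9 of 17 rose and 5 fell, and in MDAMB436 4 of 18 rose and 5 fell. SELENOS, a selenoprotein that recruits VCP to the ER membrane, stood at 2.23-fold in COV362 and 1.45-fold in MDAMB436, and SELENOK, another ER selenoprotein, at 1.52-fold and 1.32-fold. The 2 genes named in each line were those with the largest called changes. They were different genes in BT549 and OVCAR8 than in COV362 and MDAMB436, so their directions do not compare the lines. In the mean day 5 effect over the 4 lines MAN1B1 was lower (log2 change -0.56 ± 0.017) and SELENOS higher (0.50 ± 0.024). EDEM1 was higher in all 4 lines.

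Of the stress sensors and their factors, 1 of 14 rose and 2 fell in BT549 at day 5, with ATF6B, a relative of the sensor ATF6, at 0.634-fold and CREB3L1, a membrane-bound transcription factor, at 1.5-fold. In OVCAR8 at day 5, 3 of 13 rose and 2 fell, with CHAC1, a target of the PERK and ATF4 branch, at 2.41-fold and ATF6B at 0.641-fold. In COV362, 5 of 15 rose and 4 fell, with PPP1R15A, which directs dephosphorylation of eIF2 alpha, at 2.92-fold and the pseudokinase gene TRIB3 at 2.33-fold. In MDAMB436, 2 of 14 rose and 5 fell, with PPP1R15A at 1.38-fold and TRIB3 at 1.23-fold. PPP1R15A had the largest log2 change of these lists in a drug comparison, 1.44 ± 0.024 in COV362 (adjusted p = 9.69e-05).

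Genes of ER translocation and glycosylation at day 5 rose in 8 and fell in 4 of 28 cases in BT549, and rose in 3 and fell in 11 of 27 in OVCAR8. RPN2, a subunit of the oligosaccharyltransferase, stood at 0.529-fold in BT549, SSR4, a translocon-associated subunit, at 0.62-fold in BT549 and 0.641-fold in OVCAR8, and ALG3, a mannosyltransferase, at 0.708-fold in OVCAR8. In COV362, 19 of 27 rose and 4 fell, with SRPRB at 2.13-fold and SEC61G, a subunit of the translocon, at 1.59-fold. In MDAMB436, 12 of 26 rose and 4 fell, with SSR3 at 1.36-fold and SRP14 at 1.31-fold. Of the vesicle traffic genes and KDEL receptors, which return ER residents from the Golgi, 0 of 23 rose and 6 fell in BT549 and 4 of 22 rose and 12 fell in OVCAR8, with KDELR3 at 0.539-fold and 0.53-fold, TMED9 at 0.796-fold in BT549 and KDELR1 at 0.825-fold in OVCAR8. In COV362, 12 of 21 rose and 2 fell, with TMED9 at 1.5-fold and LMAN2 at 1.4-fold, and in MDAMB436 2 of 23 rose and 4 fell, with KDELR3 at 0.7-fold and TMED2 at 1.18-fold.

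Of the chaperones of the cytosol and mitochondria, which lie outside the ER, 11 of 18 rose and 2 fell in BT549 at day 5, with a median of 0.243. HSPH1, an Hsp110 chaperone, stood at 1.62-fold and HSPA8, the constitutive Hsp70, at 1.43-fold. In OVCAR8 at day 5, 8 of 19 rose and 7 fell, with HSPH1 at 1.66-fold and the small heat shock protein gene HSPB1 at 0.663-fold. In COV362, 13 of 18 rose and 1 fell, with STIP1 at 1.63-fold and TCP1 at 1.58-fold. In MDAMB436, 1 of 19 rose and 9 fell, with HSPB1 at 0.711-fold and HSP90AB1 at 0.79-fold. No test compares these lists with each other or with the members.

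**Figure D5:**
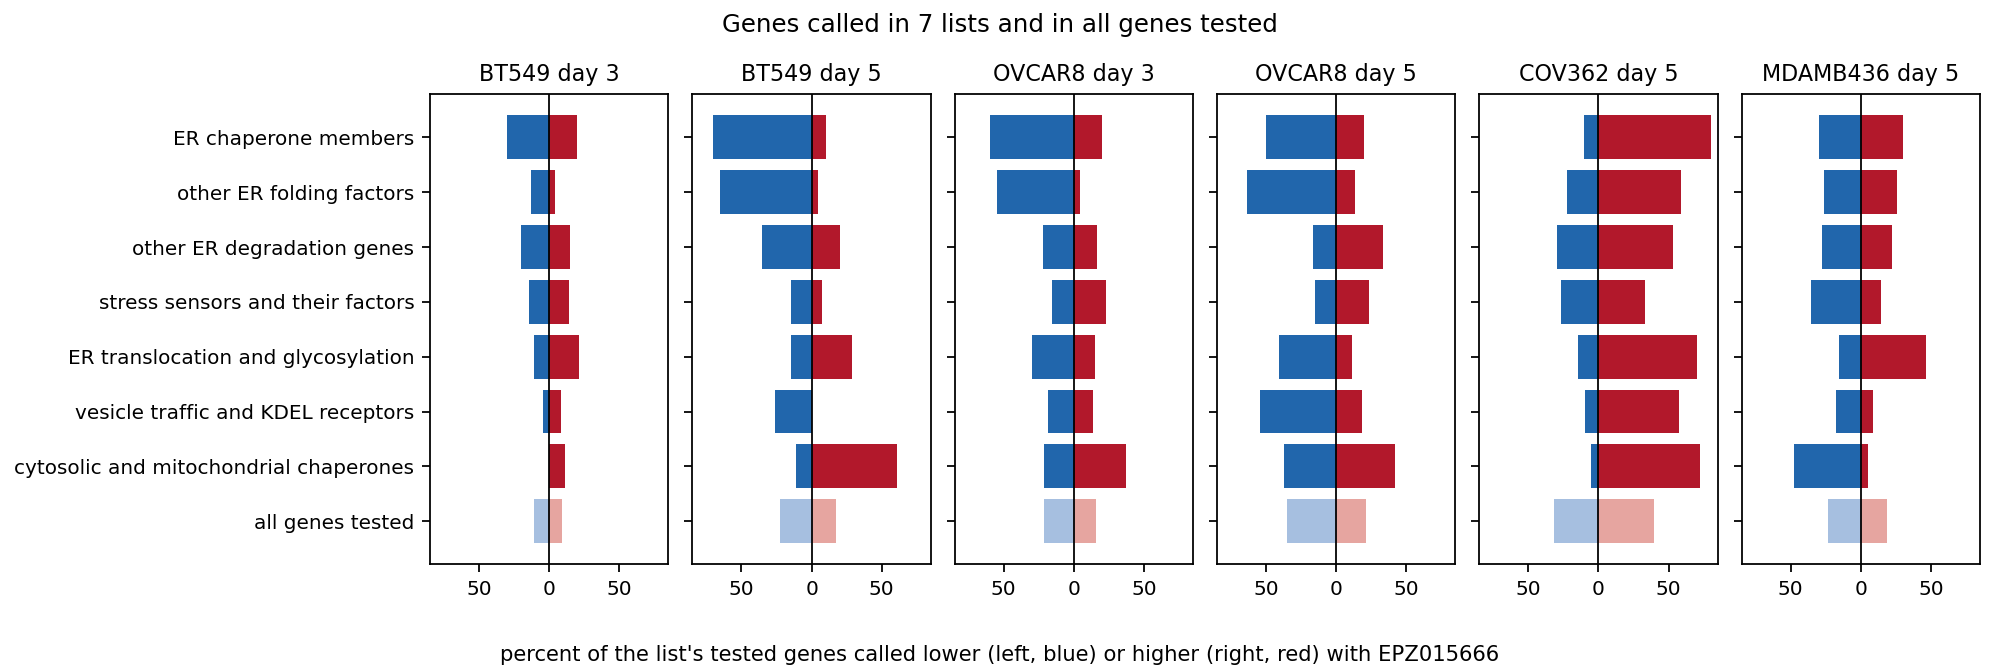
Percent of the tested genes of each list called lower (blue, left) or higher (red, right) with EPZ015666 in the 6 drug comparisons, with all genes tested in pale colours. In BT549 at day 5 the members (7 lower, 1 higher of 10) and the other ER folding factors (15 lower, 1 higher of 23) extend left and the cytosolic and mitochondrial chaperones (11 higher, 2 lower of 18) right, and in COV362 the members (8 higher of 10) extend right.

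The members varied together only in part. Over the 24 libraries, with log2(RPKM + 1) centred within each line, CALR and HSP90B1 had a Pearson r of 0.93, HSP90B1 and PDIA4 of 0.9, and CALR and HYOU1 of 0.86. EDEM1 ran against them, with an r of -0.8 with PDIA4 and -0.68 with CALR. Against the mean of the other 9 members, r was 0.84 for CALR, 0.77 for SDF2L1 and 0.75 for HSPA5, and lowest for HERPUD1 (0.23) and EDEM1 (-0.5). These points share their libraries, lines and treatments, and the values are a description. Among 2342 other genes whose mean RPKM reached 5, the patterns most like the mean of the members were those of LAMP1 (r = 0.901), TNFAIP1 (0.877), ANXA2P2 (0.859), VAT1 (0.855) and ZFP36L1 (0.843), while the median gene had an r of 0.122. ANXA2P2 is a pseudogene of ANXA2, so its reads may be split with that gene.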

How the data were processed

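Poly(A) RNA of 24 libraries was measured by stranded RNA sequencing, per the labels' protocols. The authors deposited RPKM values per gene symbol, counted with featureCounts on GRCh38, per the submitters' processing notes. Aligner, annotation, tool versions and counting strand: not given in the sources used here. Multiplying the deposited RPKM by the GENCODE v29 gene span gave whole reads, within 0.02, for nonzero values under 1000 reads, so the lengths were gene spans with introns, and whether intronic reads were counted cannot be told. Depth is given by these recovered reads.

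Log2(RPKM + 1) was tested with limma 3.58.1 in R 4.3.3 (with an intensity trend), in 1 fit per line over genes whose mean RPKM there reached 1, and p-values were Benjamini-Hochberg adjusted over all genes tested. Contrasts between lines came from 1 fit of 24 libraries over genes that passed this minimum in all 4 lines. The fit was tested on simulated data. The 10 genes and the other lists were chosen with earlier results of these data known. All 10 genes were named in each comparison. Of each other list the 2 called genes with the largest absolute log2 change in a comparison were named, and for likeness the 5 genes with the highest r. Alternatives were another pseudocount, other filters on low values, median-of-ratios scaling, a replicate block, 1 fit of 24 libraries, a fit of the 4 libraries compared, and each library left out. A lowess correction for GC content and gene span, limma-voom on recovered reads, and DMSO of day 3 as control for day 5 were chosen after seeing the data. Limma-voom took the recovered reads as library totals, in place of the totals behind the RPKM.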

Additional observations from a re-analysis of the deposited data

Results flagged for a closer look

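Each of the 10 genes had a day 5 effect that differed between the 4 lines in the F test of limma across all genes. The adjusted p was 6.03e-06 for HSPA5, 4.94e-09 for CALR, 4.94e-09 for HYOU1, 1.72e-05 for HSP90B1 and 3.60e-06 for PDIA4. It was 0.000173 for DNAJB9, 1.68e-05 for SDF2L1, 7.85e-06 for HERPUD1, 8.15e-05 for EDEM1 and 1.56e-06 for XBP1. Such a difference was found in 74.7% of all genes tested.

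The effect also differed between day 5 and day 3 for 5 gene and line pairs. Over all genes this difference passed for 5.97% in BT549 and 7.46% in OVCAR8, and with the replicate block 0 of the 5 calls held. In BT549 the difference of the log2 changes was -0.48 for CALR and -0.38 for PDIA4. In OVCAR8 it was 0.42 for HSPA5, 0.33 for HYOU1 and 0.42 for EDEM1.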

How the results depend on the processing

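Called values of the 10 genes were recomputed under 10 settings with all libraries and with 24 libraries left out in turn. Of 1714 such values, 1592 kept the call without a change of sign, 121 lost the call and 1 changed sign. These include the F tests between the 4 lines, whose values have no direction and were counted by the call only. The share of values with a direction that kept it was not computed. With 1 library left out, the count of called genes was 5 to 8 in BT549 at day 5, 3 to 5 in BT549 at day 3 and 3 to 4 in MDAMB436. It was 0 to 3 for the BT549 difference of effects, 0 to 3 for BT549 vehicle over time, 0 to 0 for the OVCAR8 difference of effects and 2 to 5 for OVCAR8 vehicle over time. A group left with 1 library was assumed to vary like the others. A minimum mean RPKM of 5 gave 3 in BT549 at day 3 and 4 in the common effect, with fewer members tested. The 4 libraries alone gave 2 in BT549 at day 3 and 3 for OVCAR8 vehicle over time. For the difference of effects, no filter gave 0 in BT549 and 1 in OVCAR8, the fit of 24 libraries 6 in BT549, and limma-voom 4 in BT549. The cause was not tested.

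Whether the letters A and B pair libraries is not labelled, and 2 libraries a group cannot settle it. The correlation of same-letter deviations ran from -0.196 to 0.214. With the replicate block the difference of effects gave 0 members in BT549 and 0 in OVCAR8 (all genes called fell from 373 to 91 and from 472 to 5), and OVCAR8 vehicle over time gave 3. The block also ended the HSPA5 call in BT549 at day 5 (adjusted p = 0.063) and the PDIA4 call there at day 3 (0.057), and for vehicle over time the calls of HSP90B1 in BT549 (0.0518) and of HSPA5 (0.0664) and CALR (0.0539) in OVCAR8.

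Changes of sign were small apart from a few. The GC and span correction gave log2 changes of 0.033 for CALR in MDAMB436, and in OVCAR8 at day 5 of 0.062 for HSPA5, 0.003 for SDF2L1 and 0.039 for XBP1, and 0.155 for SDF2L1 in the common effect. Limma-voom gave 0.007 for CALR in MDAMB436, 0.026 for DNAJB9 in BT549 at day 5, 0.01 for HSPA5 and 0.024 for XBP1 in OVCAR8 at day 5, 0.021 for XBP1 in MDAMB436, and 0.003 for HSPA5 and 0.031 for SDF2L1 in the common effect. Median-of-ratios scaling gave 0.047 for HSPA5 and 0.058 for XBP1 in OVCAR8 at day 5, 0.009 for XBP1 in MDAMB436 and 0.007 for SDF2L1 in the common effect. Against DMSO of day 3, DNAJB9 was 0.049 and HERPUD1 0.046 in BT549, and DNAJB9 0.012 and XBP1 0.269 in OVCAR8. With 1 library left out, DNAJB9 ran from -0.12 to 0.043 in BT549 at day 5 and from -0.023 to 0.104 at day 3, HSPA5 in BT549 at day 3 from -0.057 to 0.048, XBP1 in OVCAR8 at day 5 from -0.024 to 0.022 and in MDAMB436 from -0.01 to 0.005, HSP90B1 in COV362 from -0.047 to 0.018, and SDF2L1 in the common effect from -0.028 to 0.008. Depth limits DNAJB9 most, with as few as 149 reads in a library.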
